A study of Homo sapiens with 9 samples.

Results

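This report describes 167 protein-coding genes of HCT116 cells whose mRNA was highest in the libraries labelled A20-KO and lower in both WT and A20-OE. The genes were chosen by their own values in FPKM, the fragments counted on a gene per kilobase of its length, scaled between libraries. A gene entered when its largest group mean was at least 0.5 FPKM, when the A20-KO mean was at least 1.5 times the WT mean, when the A20-OE mean was at most 0.67 times the A20-KO mean, with 0.1 added to every mean, and when each A20-KO value lay above each WT and each A20-OE value. Of 58735 genes in the table, 19951 were protein-coding and 12262 of these reached the level of 0.5 FPKM, so that the 167 genes made up 1.36% of the eligible genes. The 2 comparisons used for the choice, A20-KO against WT and A20-OE against A20-KO, are therefore given below as a description, and where calls in them are listed for genes of the set nothing is read from them. A20-OE against WT was not itself a limit and was tested. The limits bound it from above, since A20-OE over WT can be at most 0.67 times A20-KO over WT. The WT and A20-OE values also took part in the choice, which can shift their ratio. The p-values of that comparison are therefore not independent of the choice and only describe the genes of the set.

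RNA of HCT116 cells, an established line of human colorectal carcinoma, was sequenced in 9 libraries, 3 in each of 3 groups. WT cells are labelled A20-WT, and A20-KO cells had the gene targeted with CRISPR/Cas9. The study's methods name, as the third group sequenced, A20-KO cells in which A20 had been put back. The labels call the third group A20-OE, which is taken here to be those cells, an assumption that the methods do not state. The guides were delivered in a LentiCRISPR v2 lentivirus. Whether the A20-KO line was 1 clone or a pool, whether WT cells received a control guide, and which vector restored A20 in the sequenced cells is not given in the sources used here. The labels do not say that the 3 libraries of a group came from separate cultures, so the p-values below measure the spread between libraries, which may be technical. In bulk RNA, fewer cells that express a gene and less RNA per cell cannot be told apart.

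A20 is the product of TNFAIP3, a ubiquitin-editing enzyme that restrains NF-kB signalling downstream of tumour necrosis factor and Toll-like receptors. In epithelial cells the genes it is best known to hold down encode chemokines, adhesion molecules and the inhibitors of NF-kB themselves. The set described here is defined by a pattern and not by a pathway, and holds secreted growth factors, enzymes of sterol and fatty acid synthesis, early response genes, homeobox transcription factors and genes better known from skin, muscle, nerve and ciliated cells.

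The targeted gene did not follow the labels at the mRNA level. The mean level of TNFAIP3 was 0.802 ± 0.0665 FPKM over the WT libraries (SD, n = 3). It was higher, at 1.71 ± 0.593 FPKM, over those labelled A20-KO (SD, n = 3), and A20-OE stood far above both at 60.6 ± 5.25 FPKM (SD, n = 3). The log2 fold change against WT was 0.95 (adjusted p = 0.018 from limma) in the libraries labelled A20-KO and 6.07 (adjusted p = 2.0e-06 from limma) in A20-OE. The reads count mRNA, and the protein was not analysed here. The paper has a figure panel on how much A20 its knockout and rescue cells expressed. In what follows A20-KO stands for the libraries labelled so, and the direction of each difference rests on that label.

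Several features of the libraries were read beside the 167 genes, and not all of them followed the order of the genes. Each library held between 23406222 and 24963691 reads. The slope of expression with GC content over the eligible genes was -0.40, -0.10 and 0.04 log2 per 10% GC in WT 1 to 3, was 0.11, 0.05 and 0.26 in A20-KO 1 to 3, and was 0.02, -0.05 and 0.05 in A20-OE 1 to 3. WT 1 was the lowest WT library for 137 of the 167 genes (82.0%, against 42.0% of the eligible genes), and A20-KO 3 was the highest A20-KO library for 134 (80.2%, against 42.4%). The mitochondrial 12S ribosomal RNA, MT-RNR1, took 0.373% to 0.525% of the reads in A20-KO, 0.136% to 0.167% in WT and 0.147% to 0.183% in A20-OE. The 16S ribosomal RNA, MT-RNR2, was not lower in A20-OE (0.973% to 1.08%, against 0.902% to 1.17% in A20-KO and 0.581% to 0.852% in WT), and all mitochondrial genes together took 12% to 14.0% of the reads in A20-OE, 9.18% to 11.9% in A20-KO and 7.52% to 10.1% in WT. The summed FPKM of 7 epithelial markers lay between 716 and 1199 in all 9 libraries, although VIL1 and CEACAM5 were under 0.1 FPKM in each. Summed markers of lymphocytes, macrophages and endothelium stayed at or under 0.755 FPKM. The summed 4 fibroblast markers were at 4.60 to 5.84 FPKM in WT, 12.5 to 15 FPKM in A20-KO and 11 to 12.3 FPKM in A20-OE, and only COL1A1 among them exceeded 0.1 FPKM. The number of genes and the calls were repeated after a GC correction and without each library, and the part of the other features in the results was not tested.

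**Figure D1:**
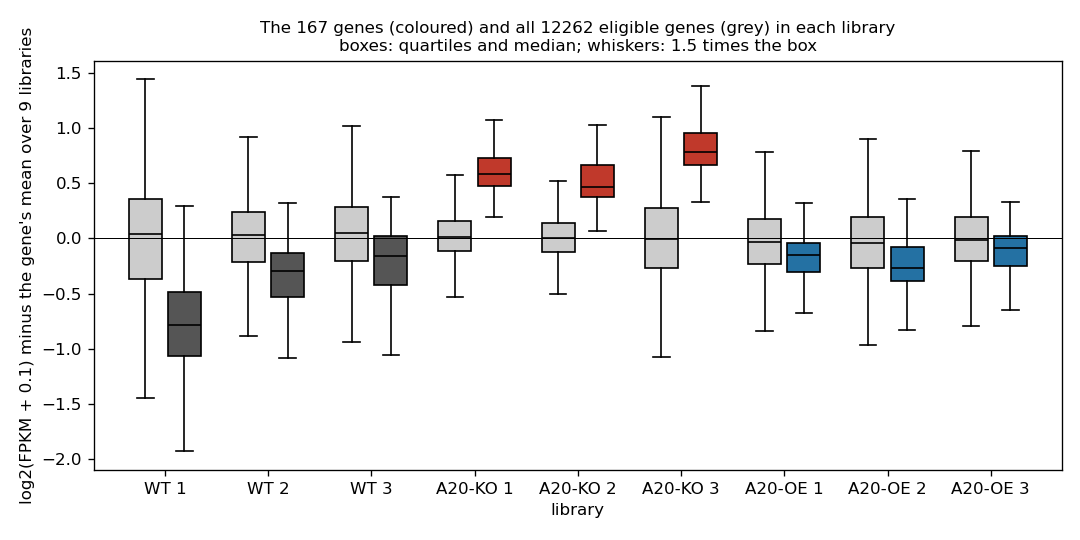
Box plots of log2(FPKM + 0.1) minus the gene's mean over the 9 libraries (y axis, log2 units) in each library (x axis), for the 167 genes (coloured) and the 12262 eligible genes (grey), with the median, the quartiles and whiskers of 1.5 times the box. The median of the 167 genes ran from 0.46 to 0.78 in A20-KO, from -0.79 to -0.16 in WT and from -0.27 to -0.08 in A20-OE. WT 1 was lowest.

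The genes of the set were richer in GC than other genes. The median GC content of the longest transcript was 60.4% (quartiles 56.6% and 64.3%), against 49.4% in the eligible genes (42.3% and 57.6%), and the median gene length was 3042 against 5006 bases. A GC correction, chosen after seeing the data, subtracted in each library the median deviation of genes of similar GC content in 50 bins. With corrected values 98 genes met the limits, and 70 of the 167 (41.9%) were among them. The 70 genes had a median GC content of 56.4% and the 97 others one of 62.8%. The 12 genes with the largest ratios were all among the 70.

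**Figure D2:**
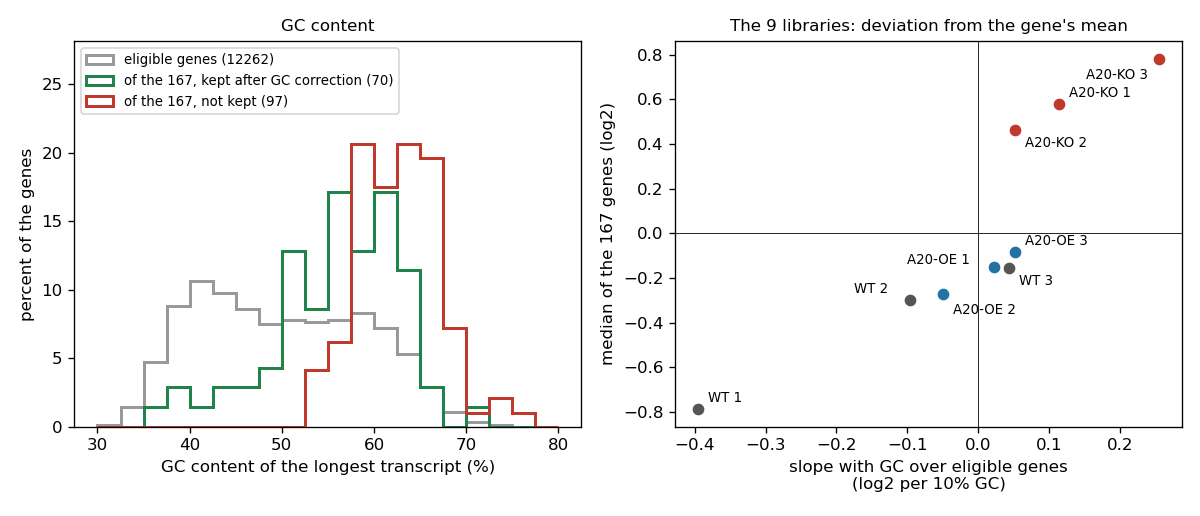
Left, GC content of the longest transcript (x axis, %) as a percent of the genes (y axis) for the eligible genes (grey) and for those of the 167 genes that were (green) or were not (red) kept after the GC correction. Right, for each library, the slope of expression with GC content (x axis, log2 per 10% GC) and the median of the 167 genes as a log2 deviation from the gene's mean (y axis). The 97 genes not kept had a median GC content of 62.8%, and WT 1 and A20-KO 3 lay at opposite ends of both axes.

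The 167 genes varied widely in level and in the size of the difference. The A20-KO mean was under 1 FPKM for 29 of them, at least 10 FPKM for 57 and at least 100 FPKM for 8. The A20-KO mean was 1.51 to 6.88 times the WT mean (median 2.0) and 1.5 to 2.94 times the A20-OE mean (median 1.71). For 21 genes both ratios were at least 2. For 33 genes the lowest A20-KO library was at least 1.5 times the highest library of the other groups. Of the log2 difference between A20-KO and WT, a median of 80.8% was gone in A20-OE (quartiles 60.5% and 100.5%). With the limma model on log2(FPKM + 0.1) of genes with a mean of at least 0.1 FPKM, and the thresholds of an adjusted p-value under 0.05 and more than 2-fold, 84 of the 167 were called higher in A20-KO against WT, where 4.91% of the 21636 genes tested were called higher, 25 were called lower in A20-OE against A20-KO, where 0.832% were called lower, and 17 met both. Without A20-KO 1, A20-KO 3, A20-OE 1 or A20-OE 2 the last count was 11, 9, 10 and 10. Since both comparisons chose the genes, nothing is read from these counts.

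The limits of the choice cut through a continuous range. LSS and FAAH were just inside the limit on A20-KO over WT with ratios of 1.51 each, and C9orf40 and ELOVL3 were just outside with 1.49 each. SLC34A3 (0.669) and TBC1D17 (0.665) were just inside the limit on A20-OE over A20-KO, and PRRG2 (0.671) and SIGIRR (0.673) just outside. SLC7A9, with an A20-KO mean of 0.507 FPKM, met the limit on the level, which WFDC2 and PNCK, with 0.457 and 0.439 FPKM, did not. With all other limits met, 65 genes failed only the ratio to WT, 245 only the ratio to A20-OE and 44 only the level.

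Secreted signals included GDF15 and FGF19, the third and the fourth of the 167 genes by the ratio of A20-KO to the larger of the other means. GDF15 (ENSG00000130513, chromosome 19 from 18374731 to 18389176 on GRCh38), a stress-induced cytokine of the TGF-beta superfamily and a p53 target, stood at 105, 134 and 179.5 FPKM in the WT libraries, 351, 307 and 387 FPKM in those labelled A20-KO and 139, 119 and 155 FPKM in A20-OE. All 3 A20-KO values lay far above the rest, and the WT and A20-OE values overlapped. The A20-KO mean was 2.5 times WT and 2.53 times A20-OE. FGF19 (ENSG00000162344, chromosome 11 from 69698232 to 69704642), an intestinal hormone that lowers bile acid synthesis in the liver, was at 24.7, 26.4 and 31.3 FPKM in WT, 64.4, 60.7 and 66.5 FPKM in A20-KO and 23.8, 22.8 and 27.8 FPKM in A20-OE, with WT and A20-OE again intermingled. Against WT, the log2 fold change in A20-OE was 0.01 (SE 0.20, adjusted p = 0.98 from limma) for GDF15 and -0.14 (SE 0.12, adjusted p = 0.39 from limma) for FGF19.

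**Figure D3:**
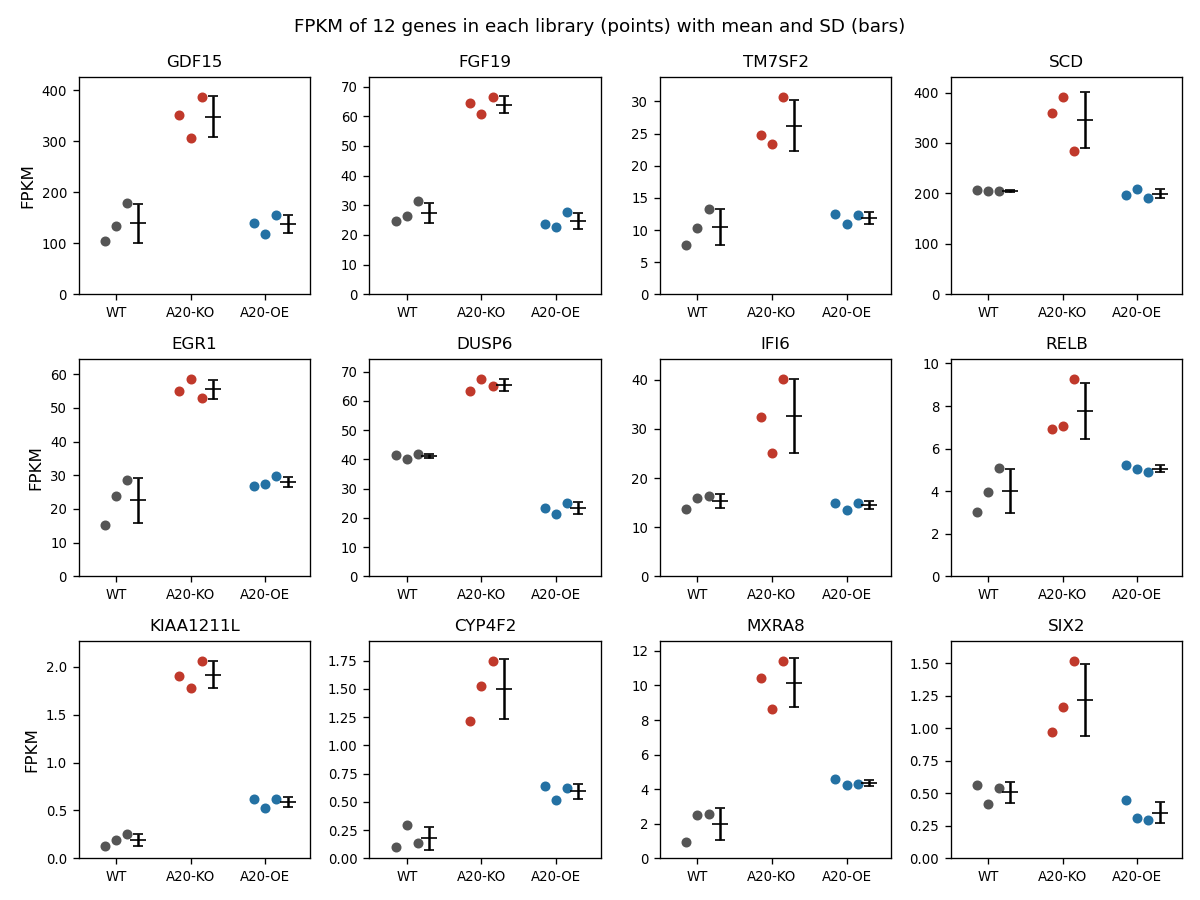
FPKM (y axes, linear and starting at 0) of 12 of the 167 genes in the 3 libraries of WT, A20-KO and A20-OE (x axes), as points, with the mean and SD of each group as bars. In each panel the 3 A20-KO points lie above the others. The A20-OE points overlap those of WT in GDF15, FGF19 and SCD, lie above them in KIAA1211L, CYP4F2 and MXRA8, and lie below them in DUSP6.

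Other secreted or membrane-bound signals, chosen after their values were seen, had smaller ratios. GAS6, the ligand of the TAM receptor kinases, was at 9.08, 10.1 and 11.6 FPKM in WT, 21.2, 17.9 and 24.6 FPKM in A20-KO and 10.6, 9.31 and 10.96 FPKM in A20-OE. MANF, a protein of the endoplasmic reticulum that is secreted under stress, had ratios of 1.89 to WT and 1.68 to A20-OE. LIF, a cytokine of the interleukin 6 family, FGF18, a growth factor, and DLL4, a Notch ligand, had ratios to WT of 1.51, 1.75 and 1.52. In all 7 genes of this kind the WT and A20-OE libraries overlapped, against 71.9% of the whole set and 41.5% of the eligible genes. The choice placed both groups below A20-KO, so the overlap is no measure of a return to WT. Besides DLL4, the Notch target HES1 (1.68 times WT) and the Notch-modifying glycosyltransferase MFNG (1.998 times WT) were in the set.

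The sequence upstream of GDF15 is shown because the gene had the largest ratio over both groups among the 8 most abundant genes. Capitals mark TATAAA and, on either strand, GGGCGG, and the stretch is the 250 bases before the RefSeq start (GRCh38.p14, chr19:18385908-18386157, plus strand).
GDF15: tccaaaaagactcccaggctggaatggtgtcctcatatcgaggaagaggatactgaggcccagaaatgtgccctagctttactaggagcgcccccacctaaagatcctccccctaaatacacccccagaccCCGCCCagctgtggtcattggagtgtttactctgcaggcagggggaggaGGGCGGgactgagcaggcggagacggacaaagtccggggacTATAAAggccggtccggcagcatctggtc

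Enzymes of sterol and fatty acid synthesis were one of 2 pathway lists with 4 genes in the set. Of 25 eligible genes in the list, those 4 made up 16.0%, against 1.36% of all eligible genes. SCD (ENSG00000099194, chromosome 10 from 100347124 to 100364834), which desaturates stearoyl-CoA, was at 208, 204 and 205 FPKM in WT, 360.4, 391 and 285 FPKM in A20-KO and 198, 209.8 and 192 FPKM in A20-OE. The WT and A20-OE values overlapped, and A20-KO 3 was the lowest of its group.

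FDFT1, the squalene synthase, had ratios of 1.67 to WT and 1.66 to A20-OE, with A20-OE at 25.9, 24.1 and 27.3 FPKM and WT at 27.2, 23.9 and 25.8 FPKM. LSS, the lanosterol synthase, was at 9.13, 11.5 and 13.1 FPKM in WT, 17.6, 16.6 and 16.8 FPKM in A20-KO and 8.98, 8.62 and 9.15 FPKM in A20-OE. TM7SF2 (ENSG00000149809), a sterol reductase of the same pathway that the list did not hold, was among the 12 genes with the largest ratios, at 7.72, 10.4 and 13.3 FPKM in WT, 24.7, 23.3 and 30.7 FPKM in A20-KO and 12.4, 10.9 and 12.3 FPKM in A20-OE. HSD17B7, another enzyme of cholesterol synthesis, was found in the set after the values were seen, with a ratio to WT of 1.52. SCD, FDFT1, TM7SF2 and HSD17B7 were kept after the GC correction, and LSS was not.

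Over the 25 genes of the list, the A20-KO mean was the highest of the 3 group means in 19, against 3222 of the 12262 eligible genes. All A20-KO values lay above all others in 8 (32%, against 6.35% of the eligible genes). The median log2 fold change of the list in A20-OE against WT was -0.32. The regulators SREBF1 and SREBF2 were not in the set.

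The sequences upstream of SCD and LSS are shown as examples of the lipid genes. CCAAT is in capitals for SCD (chr10:100346983-100347232, plus strand), where it occurs 2 times, and GGGCGG on either strand is in capitals for LSS (chr21:46228775-46229024, minus strand), where it occurs 6 times, both from the same RefSeq table.
SCD: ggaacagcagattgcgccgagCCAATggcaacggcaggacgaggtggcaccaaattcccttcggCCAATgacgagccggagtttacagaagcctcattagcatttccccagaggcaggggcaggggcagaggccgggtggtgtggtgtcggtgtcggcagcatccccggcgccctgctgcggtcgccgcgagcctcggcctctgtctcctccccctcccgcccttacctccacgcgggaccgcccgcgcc
LSS: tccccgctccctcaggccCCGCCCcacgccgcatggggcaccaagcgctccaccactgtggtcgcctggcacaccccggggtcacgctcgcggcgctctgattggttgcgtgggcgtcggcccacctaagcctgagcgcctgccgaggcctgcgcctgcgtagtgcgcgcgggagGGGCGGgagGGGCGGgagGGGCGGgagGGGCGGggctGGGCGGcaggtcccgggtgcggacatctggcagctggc

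Early response and ERK feedback genes were the other list with 4 genes in the set, out of 26 eligible (15.4%, against 1.36% of all eligible genes). Over the 26 genes, the A20-KO mean was the highest in 12, against 3222 of the 12262 eligible genes. All A20-KO values lay above all others in 7 (26.9%, against 6.35%) and below all others in 2. EGR1 (ENSG00000120738, chromosome 5 from 138465490 to 138469315), a zinc finger factor induced by growth signals, was at 15.3, 23.8 and 28.6 FPKM in WT, 55.1, 58.6 and 52.9 FPKM in A20-KO and 26.8, 27.3 and 29.7 FPKM in A20-OE. Its WT values were spread widely, and those of A20-OE overlapped the upper end of the WT range. EGR2 was at 0.655, 0.640 and 0.585 FPKM in WT, 1.82, 1.47 and 1.51 FPKM in A20-KO and 0.696, 0.502 and 0.885 FPKM in A20-OE. DUSP5 and DUSP6, phosphatases that act on ERK and are themselves induced by it, were also in the set.

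DUSP6 (ENSG00000139318, chromosome 12 from 89347232 to 89353271) was at 41.4, 40.3 and 41.8 FPKM in WT, 63.3, 67.5 and 65.2 FPKM in A20-KO and 23.4, 21.1 and 25.2 FPKM in A20-OE. The 3 groups were separate, with A20-OE lowest. Its log2 fold change in A20-OE against WT was -0.83 (SE 0.09, adjusted p = 0.00018 from limma), short of the 2-fold threshold. About 40% of the exonic bases of DUSP6 overlap an antisense gene, AC024909.2, and the use of strand in counting is not given in the sources used here. DUSP5, at 74.4, 71.2 and 74.1 FPKM in A20-OE and 70.7, 71.3 and 78.8 FPKM in WT, had a log2 fold change of -0.01 (SE 0.08, adjusted p = 0.98 from limma).

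Of the 26 genes of that list, limma called 6 higher in A20-KO against WT, namely EGR1, EGR2, FOS, IER2, JUNB and ZFP36, and none lower, where 4.91% of all genes tested were called higher. DUSP6 and EGR2 were called lower in A20-OE against A20-KO, where 0.832% of all genes tested were. EGR1, EGR2 and DUSP6 were chosen on these very values. FOS, JUNB and ZFP36 were called higher and FOSL1 lower in A20-OE against WT, and those 3 higher genes were not called lower in A20-OE against A20-KO. EGR1, EGR2 and DUSP6 were kept after the GC correction and DUSP5 was not.

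The sequence upstream of EGR1 (RefSeq, chr5:138465229-138465478, plus strand) is shown because this promoter is known for serum response elements. The CArG box, the core of such an element, is in capitals and occurs 2 times.
EGR1: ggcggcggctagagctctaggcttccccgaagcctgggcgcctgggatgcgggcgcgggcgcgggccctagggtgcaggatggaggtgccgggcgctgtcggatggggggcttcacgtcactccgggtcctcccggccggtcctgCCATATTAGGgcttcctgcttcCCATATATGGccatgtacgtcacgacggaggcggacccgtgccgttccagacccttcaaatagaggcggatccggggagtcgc

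Motif matches in the promoters are given as a description, and a match is not a site or a cause. Of the 167 genes, 113 matched a RefSeq promoter, and motifs were searched on both strands of the 250 bases upstream of the start. Shares are given for the set, the 9672 eligible promoters and all 15842 protein-coding promoters, in that order. GGGCGG was in 66.4%, 69.1% and 56.0%, CCAAT in 41.6%, 35.0% and 34.5%, and TATAAA in 3.54%, 5.09% and 9.235%. TGANTCA, the AP-1 site, was in 7.08%, 3.77% and 5.04%, and TGACTCAGC, which contains it, in 1 of the 113, 0.393% and 0.398%. ACGTG, a core that CACGTG and TGACGTCA can overlap, was in 12.4%, 23.4% and 20.8%, CACGTG in 5.31%, 8.87% and 7.84%, and TGACGTCA in 1.77%, 2.85% and 2.32%. GGAATG, the TEAD site, was in 9.74%, 9.27% and 10.1%, and the NF-kB consensus in 7.96%, 6.07% and 5.67%. Motifs added after the values were seen were TCACNCCAC, the sterol regulatory element, in 2 of the 113, 0.900% and 0.884%, the CArG box in 2 of the 113, 0.941% and 1.14%, and GCGTGGGCG, the EGR site, in 1 of the 113, 1.2% and 0.991%. The median GC content of the promoters was 66.4% in the set and 65.2% in the eligible genes.

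The NF-kB, interferon and p53 lists had 1 gene each in the set. RELB, a subunit of noncanonical NF-kB, was the only one of 18 eligible NF-kB-induced genes (5.56%, against 1.36% of all eligible genes), at 3.0, 3.98 and 5.07 FPKM in WT, 6.94, 7.06 and 9.27 FPKM in A20-KO and 5.23, 5.03 and 4.92 FPKM in A20-OE. IFI6 (ENSG00000126709), an interferon-induced mitochondrial protein, was the only one of 18 eligible interferon-stimulated genes, at 13.6, 16.0 and 16.3 FPKM in WT, 32.4, 25.1 and 40.2 FPKM in A20-KO and 14.98, 13.6 and 14.9 FPKM in A20-OE. GDF15 was the only one of 22 eligible p53 target genes. IFI6 and GDF15 were kept after the GC correction, and RELB was not. The hypoxia (21 eligible), integrated stress response (18), Wnt (12), mitosis (22) and intestinal differentiation (6) lists had 0 genes in the set. Among the 21 NF-kB-induced genes tested, limma called BCL3 and NFKBIA higher in A20-KO against WT (4.91% of all genes tested). ICAM1 and LCN2 were called lower there (449 of all 21636 genes tested). In A20-OE against A20-KO, CXCL1 and CXCL8 were called lower (0.832%) and LCN2 higher (337 of 21636). In A20-OE against WT, BCL3, BIRC3 and NFKBIA were called higher (7.68%) and CXCL8, ICAM1, LCN2 and NFKB1 lower (4.21%).

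Transcription factors made up 18 of the 167 genes out of 980 eligible (1.84%, near the 1.36% of all eligible genes), and 8 of the 18 were homeobox factors, out of 91 eligible homeobox genes (8.79%). Homeobox genes are known for patterning the embryo. MSX1 (ENSG00000163132, chromosome 4 from 4859666 to 4863936) was the most abundant, at 52.7, 67.2 and 80.2 FPKM in WT, 166, 155 and 166 FPKM in A20-KO and 94.6, 79.9 and 99.6 FPKM in A20-OE. SIX2 (ENSG00000170577), a factor of kidney progenitors, was at 0.566, 0.417 and 0.544 FPKM in WT, 0.970, 1.16 and 1.52 FPKM in A20-KO and 0.446, 0.311 and 0.296 FPKM in A20-OE. The others were PRRX2, NKX2-8, NKX6-1, LBX2, EN2 and ZFHX2, and MSX1 and SIX2 were the 2 of the 8 kept after the GC correction. ZFHX2 was at 0.330, 0.482 and 0.423 FPKM in WT and 0.169, 0.275 and 0.168 FPKM in A20-OE, with a log2 fold change of -0.76 (SE 0.25, adjusted p = 0.046 from limma), under the 2-fold threshold. These homeobox counts were made after the values were seen.

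A metabolic enzyme and several receptors were also found after their values were seen. PCK2, the mitochondrial phosphoenolpyruvate carboxykinase, was at 7.68, 8.11 and 9.49 FPKM in WT, 13.8, 12.9 and 14.0 FPKM in A20-KO and 7.30, 6.30 and 7.40 FPKM in A20-OE, where all A20-OE values lay below all WT values (log2 fold change -0.26, adjusted p = 0.1 from limma). Another 8 genes were receptors and channels. These genes, among them the somatostatin receptor SSTR5, the vasopressin receptor AVPR2 and the calcium channel TRPV4, had ratios of 1.58 to 2.46 to WT and of 1.54 to 2.18 to A20-OE, and 1 of the 8 was kept after the GC correction.

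Abundant genes outside those groups followed the same order. PHLDA2 (ENSG00000181649, chromosome 11 from 2928273 to 2929455), an imprinted growth-restraining gene of the placenta, had the highest A20-KO mean and was at 93.4, 194 and 254 FPKM in WT, 351, 333 and 460.3 FPKM in A20-KO and 228, 174 and 269 FPKM in A20-OE. PTMS, a small acidic nuclear protein, was at 82.4, 148 and 206 FPKM in WT, 280.3, 279.6 and 374 FPKM in A20-KO and 165, 149.7 and 210.2 FPKM in A20-OE. In both genes WT 1 was much lower than the other 2 WT libraries. CHPF, an enzyme that extends chondroitin chains, was at 111, 134 and 181 FPKM in WT, 223, 199 and 255 FPKM in A20-KO and 125, 109 and 129 FPKM in A20-OE. PHLDA2 was kept after the GC correction, and PTMS and CHPF were not.

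At the other end of the scale, KIAA1211L (ENSG00000196872, chromosome 2 from 98793846 to 98936259) had the largest ratio over both groups, at 0.128, 0.196 and 0.255 FPKM in WT, 1.91, 1.78 and 2.06 FPKM in A20-KO and 0.618, 0.522 and 0.620 FPKM in A20-OE, from 15 to 226 reads per library. CLEC18B, a C-type lectin gene with close paralogs among which reads may be split, was at 0.346, 0.573 and 0.458 FPKM in WT, 1.36, 0.971 and 2.44 FPKM in A20-KO and 0.395, 0.538 and 0.637 FPKM in A20-OE. PADI3, which deiminates hair and skin proteins, was at 0.758, 0.590 and 0.677 FPKM in WT, 2.36, 2.44 and 2.39 FPKM in A20-KO and 0.966, 1.04 and 1.02 FPKM in A20-OE. Its 3 groups did not overlap. LTC4S, the leukotriene C4 synthase, had ratios of 2.69 and 2.25 to WT and A20-OE.

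Genes of ciliated cells, skin, muscle and synapses were found among the 167 after their values were seen, with A20-KO means of up to 25.3 FPKM. Of 30 eligible genes of axonemal dyneins and motile cilia, 6 were in the set (20%, against 1.36% of all eligible genes), namely CCDC151, DNAL4, IQCD, CCDC40, DNAI1 and the ciliogenesis factor FOXJ1, with A20-KO means from 0.604 to 9.42 FPKM. Over the 30 genes, the A20-KO mean was the highest in 15, against 3222 of the 12262 eligible genes. All A20-KO values lay above all others in 8 (26.7%, against 6.35%) and below in 0. Of 44 genes tested, limma called 7 higher and 0 lower in A20-KO against WT, where 4.91% of all genes tested were called higher. Of those 7, CCDC151, DNAI1 and IQCD were chosen on these values. CCDC151 alone was called lower in A20-OE against A20-KO (0.832% of all genes tested). In A20-OE against WT, CCDC114, CFAP74, IQCD, RSPH3 and TEKT3 were called higher (7.68% of all genes tested) and CFAP157 lower (4.21%). CCDC151, a dynein docking factor, was at 0.255, 0.687 and 0.492 FPKM in WT, 1.12, 1.09 and 1.33 FPKM in A20-KO and 0.479, 0.436 and 0.471 FPKM in A20-OE. EVPL, SBSN, CSTA, KRT23, KRTAP5-1 and PADI3 are known from the skin envelope, hair and keratin filaments, and 5 of these 6, all but EVPL, were kept after the GC correction. Of the 6 cilium genes, CCDC151, IQCD and DNAI1 were kept after it and DNAL4, CCDC40 and FOXJ1 were not. TNNC1, MYBPH and MYL9 are contractile proteins, and STX1A, DLG4, GRIN1, DOC2A, HOMER3 and PPFIA3 act at synapses or in vesicle release. TNNC1, MYBPH and DOC2A were kept after the GC correction, and MYL9 and the other synapse genes named were not.

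Gene families by symbol are set against the 1.36% of all eligible genes in the set. Solute carriers gave 9 of 221 eligible genes (4.07%), led by SLC38A10, SLC4A3 and SLC2A6. After the GC correction 3 of the 9 were kept, and SLC38A10, SLC4A3 and SLC2A6 were not among them. SLC2A6, a glucose transporter of the lysosome, was at 5.17, 7.03 and 8.26 FPKM in WT, 12.2, 12.4 and 12.3 FPKM in A20-KO and 4.88, 3.82 and 5.43 FPKM in A20-OE. Orphan and adhesion G protein-coupled receptors gave 3 of 39 (7.69%, GPR35, GPR143 and GPR162), keratins 1 of 19 (5.26%, KRT23), collagens, laminins and integrins 1 of 44 (2.27%, COL9A2), and tripartite motif genes 2 of 47 (4.26%, TRIM15 and TRIM73, the latter with close paralogs). GPR143, KRT23 and TRIM73 were kept after the GC correction, and GPR35, GPR162, COL9A2 and TRIM15 were not. The 361 eligible C2H2 zinc finger genes gave 0, as did the potassium channel, histone, protocadherin, ribosomal protein, metallothionein, TNF superfamily, kinesin, mitochondrially encoded and histocompatibility families.

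A20-OE against WT compares the groups that the choice placed below A20-KO, within what it allowed. Under the limit on A20-OE, 16 of the 167 genes could have a ratio of A20-OE to WT above 2, so the count of higher calls was capped by the choice and is not read against other genes. The limma fit called 9 of the 167 genes higher (5.39%, against 7.68% of all genes tested) and 0 lower (against 4.21%). At an unadjusted p-value under 0.05, limma put 39 of the 167 higher (23.35%, against 21.1% of all genes tested) and 7 lower (4.19%, against 20.35%), and limma-voom on the recovered reads called 13 higher and 1, ZFHX2, lower. Without the fold threshold the adjusted p-value passed for 23 higher and 2 lower genes, the latter DUSP6 and ZFHX2. The WT and A20-OE libraries overlapped in 120 of the 167 genes (71.9%, against 41.5% of the eligible genes). All A20-OE values lay above all WT values in 42 genes (25.15%, near the 26.1% of the eligible genes). They lay below in 5 (2.99%, against 32.4%), namely DUSP6, PCK2, SDSL, TMEM88 and ZFHX2. The ratio of A20-OE to WT was between 0.8 and 1.25 in 100 genes (59.9%, against 41.0% of the eligible genes). The choice placed both groups below A20-KO, so these counts describe the set and are no measure of a return to WT.

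The median log2 fold change of the 167 genes in A20-OE against WT was 0.24, against 0.03 over all genes tested. It rested on WT 1: without that library it was 0.01, against 0.02 over all genes tested, and 89 rather than 130 of the 167 genes were above 0. After the GC correction it was 0.07, against 0.02 over all genes tested.

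**Figure D4:**
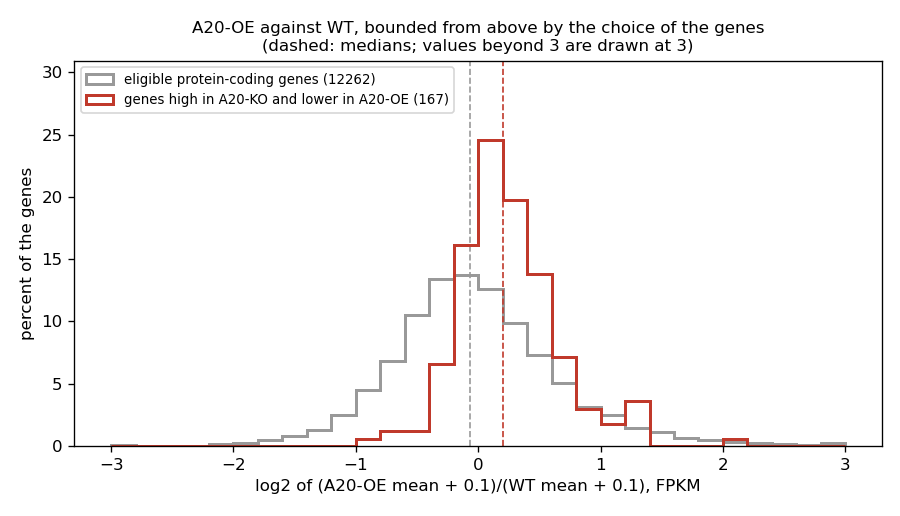
Distribution of log2 of the ratio of the A20-OE mean to the WT mean, each with 0.1 FPKM added (x axis), as a percent of the genes (y axis), for the 167 genes (red) and the 12262 eligible genes (grey), with dashed medians. The ratio had quartiles of 0.997 and 1.41 on a linear scale over the 167 genes, which the limits of the choice bound from above.

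The 9 genes called higher in A20-OE against WT kept an intermediate level. ARMH1 (ENSG00000198520, chromosome 1 from 44674692 to 44725591), an armadillo-like repeat gene, was at 0.245, 0.414 and 0.328 FPKM in WT, 2.15, 2.39 and 4.02 FPKM in A20-KO and 2.07, 1.48 and 1.83 FPKM in A20-OE, with a log2 fold change of 2.15 (SE 0.26, adjusted p = 0.00037 from limma). Its A20-OE values lay close under those of A20-KO. TNNC1, the troponin C of slow and cardiac muscle, was at 1.17, 3.39 and 3.70 FPKM in WT, 10, 9.86 and 12.3 FPKM in A20-KO and 7.80, 5.49 and 7.04 FPKM in A20-OE (log2 fold change 1.41, adjusted p = 0.017 from limma). CSTA, an inhibitor of cysteine proteases in skin, was at 1.496, 2.04 and 1.57 FPKM in WT, 6.14, 5.30 and 8.66 FPKM in A20-KO and 4.27, 4.14 and 4.56 FPKM in A20-OE (log2 fold change 1.31, adjusted p = 0.0009 from limma).

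MYBPH, a myosin-binding protein, was at 0.826, 1.04 and 1.22 FPKM in WT, 4.47, 4.10 and 5.06 FPKM in A20-KO and 2.75, 2.23 and 2.92 FPKM in A20-OE (log2 fold change 1.28, adjusted p = 0.00058 from limma). IQCD, of the motile cilium and named after its value was seen, was at 1.21, 1.61 and 1.54 FPKM in WT, 5.12, 5.16 and 5.30 FPKM in A20-KO and 3.55, 2.96 and 3.54 FPKM in A20-OE (log2 fold change 1.15, adjusted p = 0.00031 from limma). In both genes the 3 groups were apart. KIAA1211L (log2 fold change 1.25, adjusted p = 0.002 from limma) and CYP4F2, a fatty acid hydroxylase with close paralogs, at 0.103, 0.293 and 0.140 FPKM in WT and 0.640, 0.513 and 0.623 FPKM in A20-OE (log2 fold change 1.37, adjusted p = 0.0053 from limma), were under 1 FPKM in both groups.

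MXRA8, an adhesion protein known as a receptor of arthritogenic alphaviruses, was at 0.934, 2.51 and 2.54 FPKM in WT, 10.4, 8.64 and 11.4 FPKM in A20-KO and 4.57, 4.24 and 4.29 FPKM in A20-OE (log2 fold change 1.21, adjusted p = 0.018 from limma). LYL1, a haematopoietic basic helix-loop-helix factor, was at 0.0258, 0.0770 and 0.0641 FPKM in WT and 0.219, 0.245 and 0.447 FPKM in A20-OE (log2 fold change 1.35, adjusted p = 0.01 from limma), with 2 reads in its lowest library. WT 1 was the lowest WT library in all 9 genes. Without WT 1, the log2 fold changes of TNNC1 and MXRA8 were 0.90 and 0.77, under the 2-fold threshold. Both calls were also lost without a filter on low values (adjusted p = 0.108 each from limma), in a fit on the 2 groups (0.0575 and 0.0572) and without A20-OE 1 (0.0622 and 0.0579), that of TNNC1 also without A20-OE 3 (0.0524) and that of MXRA8 with a pseudocount of 1. A pseudocount of 1 also removed the calls of CYP4F2, LYL1, CSTA, MYBPH, KIAA1211L and IQCD. Only those of ARMH1 and TNNC1 held under it. Without WT 3, 14 of the 167 genes were called.

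The 2 comparisons of the choice were also read in libraries that a repeat of the choice did not use. When the limits were applied to 2 libraries of each group and the third was held back, 97 of 190 genes picked without the number 1 libraries (51.1%) met both ratio limits in those libraries, against 2.38% of the eligible genes. Without number 2 the count was 88 of 262 (33.6%, against 1.57%), and without number 3 it was 95 of 176 (54.0%, against 2.55%). The held-back A20-KO value lay above both others in 86.3%, 85.9% and 94.3% of the genes picked, against 29.4%, 25.2% and 25.6% of the eligible genes. After the GC correction the shares that met both limits were 37.1%, 37.7% and 50.9%, against 1.16%, 1.17% and 1.73%. The libraries of a group may share their culture and preparation, so these shares speak for the libraries and not for other cells.

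Chromosome 19 held the most genes of the set, 22 of the 167 or 2.36% of its eligible genes, against 1.36% over all chromosomes. In 5 places 2 genes of the set were next to each other among the eligible genes: MYBPH and CHI3L1, FAM222A and TRPV4, TMEM255B and GAS6, PALM3 and MISP3, and CHPF and TMEM198, whose annotated ends overlap. Exonic bases were shared with another gene in 70 of the 167 (41.9%, against 48.4%), and over 50% of them in TEN1-CDK3, EIF4EBP3 and CPT1B, whose reads may come from the overlapping gene. In 5 genes (KRTAP5-1, HRCT1, EIF4EBP3, TMEM88B and STPG3) each library had fewer than 30 reads.

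The number of genes that met the limits depended on single libraries. Without A20-KO 3, 128 genes met them, of which 113 were among the 167. Without A20-KO 2 the number was 295, of which 159 were among the 167, and without WT 1 it was 146, of which 140 were. The mirror limits, low in A20-KO and higher in WT and A20-OE, were met by 93 eligible genes. The same limits with WT as the high group were met by 949 eligible genes and with A20-OE as the high group by 459, so that A20-KO was the high group with the fewest.

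**Figure D5:**
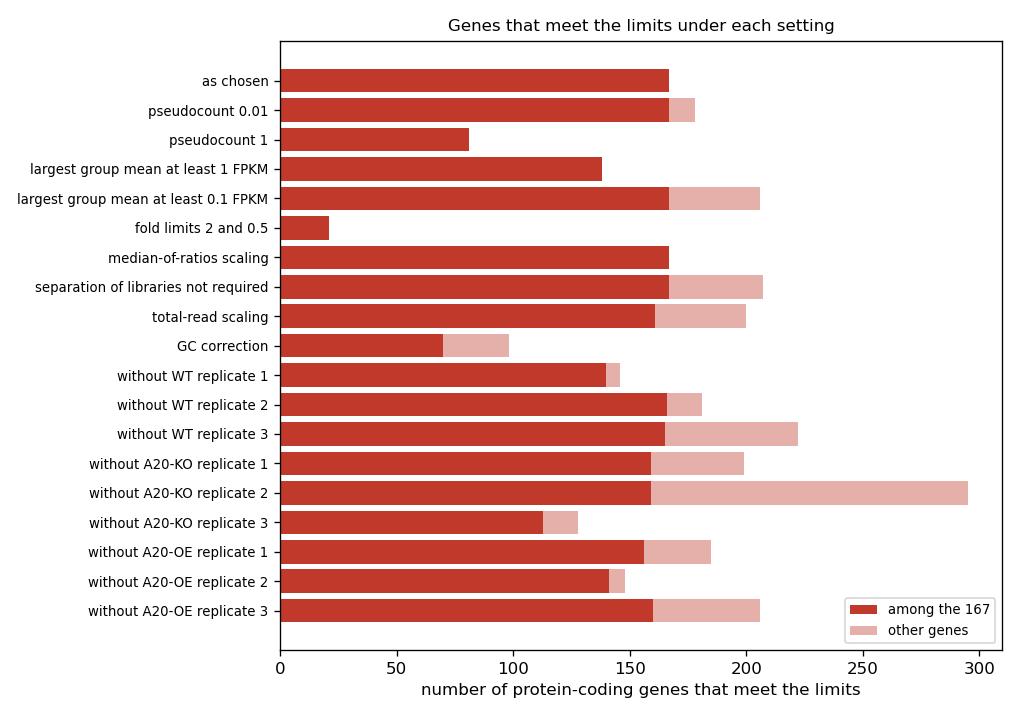
Number of protein-coding genes that met the limits (x axis) under each setting (y axis), divided into those among the 167 genes (dark) and other genes (light). The number ran from 21 with limits of 2-fold in both directions to 295 without A20-KO 2.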

How the data were processed

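RNA-seq was done on 9 libraries of HCT116 cells, 3 per group. Per the study's methods, mRNA was captured on poly-T beads and sequenced in paired ends, aligned with HISAT2 2.0.5 and counted per gene with featureCounts 1.5.0-p3 (versions from the submitters' processing notes and the methods), and the authors tested counts with DESeq2. The deposited values are FPKM, which the authors computed from the counts and the gene length. The genome build and the use of strand in counting are not given in the sources used here, and 99.98% of the gene coordinates equal those of GENCODE 29 (GRCh38). The deposited FPKM were whole multiples of 1 read in 100% of the values (tolerance 0.05 reads), which gave 23406222 to 24963691 reads per library.

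The 167 genes and the gene lists were chosen with earlier results of these data known. Tests used limma 3.58.1 (R 4.3.3) with a variance trend on log2(FPKM + 0.1) of 21636 genes with a mean of at least 0.1 FPKM, the 3 groups in 1 fit, Benjamini-Hochberg adjustment over all genes tested, and the thresholds of 0.05 and 2-fold; fold changes of low genes are understated by the pseudocount. The fit was tested on simulated data. Gene ratios add 0.1 FPKM to each mean. Genes were named when among the 12 largest ratios over the larger of the other groups, the 6 highest A20-KO means, the 8 largest calls of A20-OE against WT, members of the pathway lists, up to 3 per gene family, and those beside each limit. The alternatives were other pseudocounts, filters, levels and fold limits, median-of-ratios scaling, a fit on 2 groups, a replicate block, no variance trend, no fold threshold, limma-voom on the recovered reads and leaving out each library. Median-of-ratios scaling left the values as deposited. GC correction, total-read scaling, and every alternative for the genes called in both comparisons of the choice were chosen after seeing the data. Promoters came from RefSeq (GRCh38.p14). A few genes that the naming rule takes in are not reported here.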

Additional observations from a re-analysis of the deposited data

How the results depend on the processing

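The count of the 167 genes called higher in A20-OE against WT (9) was 2 with a pseudocount of 1 and 23 without the fold threshold, and 8 to 14 without single libraries. The count called lower (0) was 1 with a pseudocount of 0.01 and by limma-voom, and 2 without the fold threshold. The median log2 fold change of the 167 genes in that comparison (0.24) was 0.14 with a pseudocount of 1, 0.0745 after the GC correction, and 0.0149 to 0.355 without single libraries. The count called in both comparisons of the choice (17) was 6 with a pseudocount of 1, 10 without the filter on low values, 11 with a mean of at least 1 FPKM, 71 without the fold threshold, 29 by limma-voom, 8 after the GC correction, and 9 to 21 without single libraries. The number of genes that met the limits (167) was 81 with a pseudocount of 1, 21 with limits of 2-fold, 98 after the GC correction, and 128 to 295 without single libraries. Of the genes picked without a held-back set of libraries, 86.3%, 85.9% and 94.3% had the held-back A20-KO value above both others by any amount. For the 9 genes called, 170 of 186 alternative values were still called, 16 were not and 0 reversed. The cause of these shifts was not tested, beyond what a threshold, filter or pseudocount changes by its construction. Libraries of the same replicate number deviated together little (correlations of -0.027 to 0.121 over 9 pairs, of which 1 was over 0.1). Those of different numbers had correlations of -0.131 to 0.072 over 18 pairs. The labels do not say whether the number pairs libraries, and low correlations cannot exclude it. With the replicate block 9 genes were called in A20-OE against WT and 18 in both comparisons of the choice. With 3 libraries per group, genes with under 30 reads in each library, 5 of the 167, were the least precise.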

Other observations

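The limits were also met by 90 genes that are not protein-coding, named here after their values were seen. Of these, 45 had under 30 reads in every library and 20 had at least 100 reads in a library. OLMALINC, a long intergenic RNA that lies beside SCD on chromosome 10 (from 100373513 to 100454043), was at 3.20, 2.57 and 3.01 FPKM in WT, 5.07, 5.16 and 6.23 FPKM in A20-KO and 3.23, 3.35 and 4.11 FPKM in A20-OE. TNRC6C-AS1, an antisense RNA whose reads cannot be told from those of an overlapping gene where strand was not counted, was at 1.36, 1.08 and 1.64 FPKM in WT, 3.88, 3.74 and 4.47 FPKM in A20-KO and 2.14, 2.11 and 2.13 FPKM in A20-OE. MT-RNR1 was the most abundant of the 90, at 1370.0 to 1747 FPKM in WT, 3781 to 5625 FPKM in A20-KO and 1507 to 2046 FPKM in A20-OE. These values were chosen by the same limits and carry no test.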
